A study of Mus musculus with 2 samples.

Results

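The replication-dependent histone genes code for the linker histone H1 and the core histones H2A, H2B, H3 and H4 that package newly made DNA. They were taken by gene symbol: H1f1 to H1f5 exactly, and every symbol that starts with H2ac, H2bc, H3c or H4c followed by a digit. The rule found 67 of the 33670 symbols in both matrices, namely 5 H1, 18 H2A, 19 H2B, 12 H3 and 13 H4 genes. Of these, 65 had a UMI (a count of distinct tagged transcripts) in the cells used. H2ac19 and H2bc23 had none in either library, and 1 listed gene, H2bc26-ps, is a pseudogene.

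The cells came from embryoid bodies, aggregates in which embryonic stem cells start to differentiate, of the male mouse line J1, measured with 10x Chromium 3′ chemistry. One group received DMSO, the solvent control, and the other dTAG13, each for 2 days, with 1 library per group. dTAG13 is a degrader molecule that targets proteins carrying an FKBP12(F36V) tag. The series title names Tex10, and the labels give neither the tagged protein nor any genotype beyond the J1 strain. Both groups share the line and the culture form. A degrader acts on protein, so mRNA levels do not check its action.

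With 1 library per group, no difference has a replicate check, and no test was run. Intervals are at 95% and hold counting error alone. A level is given in CPM, the UMIs of a gene scaled to a common library total, and a ratio is dTAG13 over DMSO.

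These genes are known for being transcribed in step with DNA synthesis. NPAT, phosphorylated by cyclin E with CDK2, drives their transcription at nuclear histone locus bodies. Most of their mRNAs end in a conserved stem-loop in place of a poly(A) tail. The stem-loop binding protein SLBP directs the processing of that end, and the mRNAs are degraded quickly when replication stops. H1 sits on the linker DNA between nucleosomes, and an octamer of H2A, H2B, H3 and H4 forms the nucleosome core. Embryonic stem cells spend much of their short cycle in S phase. A 3′ kit primes at stretches of A, so the values count the histone RNA that the kit captured, and levels of different histone genes are not compared as abundances.

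The stem-loop is shown because it is the feature the family shares and because it bears on what the kit can capture. It was searched in the transcripts of GENCODE M21 (mm10) on the sense strand as GG, NNN, TTT, NN, A, NNN and CC in a row, where N is any base, and the 67 members matched that annotation by Ensembl identifier. The motif was present in 43 of 67 members (64.2%), against 3.32% of the 55450 genes of that annotation. The capitals below mark the stem-loop, with up to 5 flanking bases on each side, 5′ to 3′.

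H1f4: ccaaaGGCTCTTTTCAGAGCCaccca

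H2ac8: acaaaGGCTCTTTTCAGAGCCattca

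H2ac20: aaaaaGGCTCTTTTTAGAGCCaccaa

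H3c3: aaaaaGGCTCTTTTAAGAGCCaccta

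H4c4: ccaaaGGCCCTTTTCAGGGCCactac

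H4c9: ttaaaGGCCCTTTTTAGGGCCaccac

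H4c11: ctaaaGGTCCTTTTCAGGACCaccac

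The stem of H1f4 and H2ac8 was also found in 2 further H1 genes (H1f2 and H1f3), in 10 H2A genes in all, and in 8 H2B and 5 H3 genes. The loop with AA in place of CA, shown for H3c3, was found in 3 H3 and 2 H2B genes. H4 genes had stems of their own: 7 carried the sequence of H4c4, 2 that of H4c9 and 2 that of H4c11. No stem-loop was found in the annotated transcripts of the other 24 members. H1f5 and H1f1 are among them, with M21 models that span 743 and 741 bases, and no match says only that these letters are not in the model.

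The members lie in clusters. By M21 (GRCm38), 53 members are on chromosome 13 between 21715763 and 23934851, 10 on chromosome 3 between 96219865 and 96270132, 3 on chromosome 11 and 1 on chromosome 6. The RefSeq promoter table (GRCm38.p6) held 57 of the 67 members. The 250 bases upstream of the start are shown for H1f5 and H1f4, the H1 genes with the most UMIs, and for H2bc18, the H2B gene with the most. Capitals mark 4 motifs searched on both strands in the 300-base window: AAACACA, known as the H1 box, ATTTGCAT, the octamer bound by Oct factors, CCAAT, which reads ATTGG where it lies on the other strand, and TATAAA.

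H1f5, chr13:21780626-21780875, minus strand: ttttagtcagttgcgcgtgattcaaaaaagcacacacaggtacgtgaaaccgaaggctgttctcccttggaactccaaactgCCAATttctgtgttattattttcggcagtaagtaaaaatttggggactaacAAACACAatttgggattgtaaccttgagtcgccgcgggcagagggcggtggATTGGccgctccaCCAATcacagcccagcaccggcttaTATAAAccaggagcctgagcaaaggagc

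H1f4, chr13:23622559-23622808, minus strand: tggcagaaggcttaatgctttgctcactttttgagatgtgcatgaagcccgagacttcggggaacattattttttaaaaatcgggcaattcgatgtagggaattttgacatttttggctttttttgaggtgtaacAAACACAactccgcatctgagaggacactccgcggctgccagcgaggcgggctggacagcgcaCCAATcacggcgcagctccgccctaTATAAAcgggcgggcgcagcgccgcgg

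H2bc18, chr3:96269450-96269699, plus strand: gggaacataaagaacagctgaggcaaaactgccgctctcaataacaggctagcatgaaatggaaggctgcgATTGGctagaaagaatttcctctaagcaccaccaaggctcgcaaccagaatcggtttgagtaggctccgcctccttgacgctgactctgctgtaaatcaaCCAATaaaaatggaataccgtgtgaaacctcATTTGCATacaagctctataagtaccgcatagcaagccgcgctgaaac

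The motifs divided by histone type. Counts are by gene, with a motif in any promoter of a gene counted once. The H1 box was present in 4 of 5 H1 genes, 2 of 17 H2A, 2 of 14 H2B, 0 of 10 H3 and 0 of 11 H4 genes, against 8.22% of 27025 genes in the table. The octamer was present in 7 of 14 H2B and 6 of 17 H2A genes and in no H1, H3 or H4 gene, against 1.97%. Sites in overlapping windows of neighbouring genes count for both, as the octamer of H2ac8 and that of H2bc8 are the same site. CCAAT was present in 49 of 57 members (86.0%), with H4 apart at 3 of 11, against 41.1%. TATAAA was present in 34 of 57 (59.6%), against 15.7%.

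The DMSO library held 17878 kept cells and 117189816 UMIs, and the dTAG13 library 11588 cells and 91808969 UMIs. Median UMIs per cell were 6014 and 7072.5, so the dTAG13 library was deeper per cell. The libraries shared 64 barcodes. All 9 pluripotency markers were at 5 CPM or more in 1 or both libraries, with summed levels of 10141 and 9008 CPM. Of the markers of other cells, 3 of 9 trophoblast genes (Krt7, Krt8 and Krt18), 2 of 9 extraembryonic endoderm genes (Sparc and Lamb1), 1 of 8 fibroblast feeder genes (Acta2) and 0 of 7 mesoderm genes reached 5 CPM. The trophoblast list summed to 32.9 CPM with DMSO against 84.5 CPM with dTAG13, with no gene of it at 0, and the extraembryonic endoderm list to 183 and 267 CPM. The 6 trophoblast genes under 5 CPM did not go 1 way. Elf5 was lower with dTAG13 (22 and 2 UMIs). Eomes and Tfap2a had ratios of 1.12 and 1.15 with intervals that include 1, and Gata3, Hand1 and Cdx2 had ratios of 3.07, 3.11 and 2.07. The keratins are therefore not read as showing trophoblast cells. The mesoderm list summed to 3.14 and 5.47 CPM and the feeder list to 7.25 and 2.49 CPM, with Col3a1, Lum and Postn at 0. The part of these cells in the histone values was not tested.

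Histone RNA was higher in the dTAG13 library for all 5 histone types. Summed over the 67 members it was at 1718 CPM (201291 UMIs) with DMSO against 2482 CPM (227895 UMIs) with dTAG13, a ratio of 1.45 (1.44 to 1.45). H4 and H1 had the highest ratios and H2A the lowest. H1f5 alone gave 33.2% and 32.3% of these UMIs. Without it the ratio was 1.46.

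H1 stood at 987 CPM with DMSO against 1497 CPM with dTAG13, a ratio of 1.52 (1.504 to 1.528), or 1.41 without H1f4. H4 stood at 85.0 and 143 CPM, a ratio of 1.69 (1.64 to 1.73). The H4 value rests on 1 gene: without H4c4, which held 62.8% of H4 UMIs with DMSO and 70.9% with dTAG13, it was 1.32 (1.26 to 1.38). H2A was at 303 and 382 CPM, a ratio of 1.26 (1.24 to 1.28). H2B was at 96.1 and 131 CPM, a ratio of 1.37 (1.33 to 1.40), and H3 at 246 and 329 CPM, a ratio of 1.34 (1.32 to 1.36). In H2A and H3 the gene with the most UMIs had a lower ratio than the rest of its type, since without H2ac8 the H2A ratio was 1.40 and without H3c3 the H3 ratio was 1.49. H1 made up 57.5% of histone UMIs with DMSO and 60.3% with dTAG13, so the ratio of captured linker to core histone RNA was higher with dTAG13. That contrast rests on a few genes. Beside the 1.41 of H1 without H1f4, the members other than the 5 H1 genes, H2ac8 and H3c3 had a ratio of 1.47 (1.45 to 1.49). The core histones together were at 730 and 986 CPM, a ratio of 1.35 (1.34 to 1.36).

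**Figure D1:**
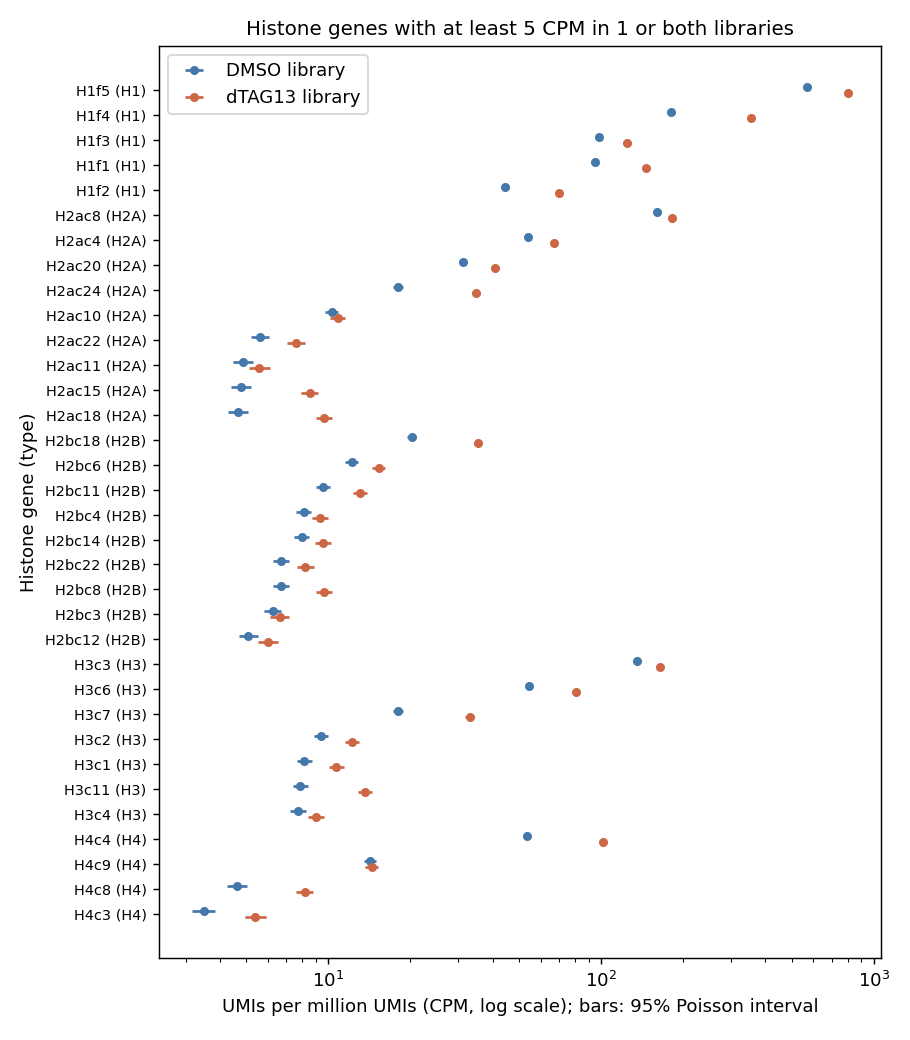
Level of each of the 34 histone genes that reached 5 CPM in either library, in CPM on a log axis, grouped by histone type. Points are the DMSO library (blue) and the dTAG13 library (red), and bars are 95% Poisson intervals; every red point lies to the right of its blue point, and the H1 genes lie between 44.5 and 802 CPM.

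Of the 67 members, 34 reached 5 CPM in 1 or both libraries, and 12 of these were at least 1.5-fold higher with dTAG13, against 14.2% of the 8817 genes at that level. None was at least 1.5-fold lower, against 5.4% of those genes. All 34 ratios were above 1, as were 60.3% of those over the 8817 genes, and they ranged from 1.02 to 2.06, with a median log2 ratio of 0.41, against 0.09 over all 8817 genes. A member that reached 5 CPM only with dTAG13 had to be higher there, so the 29 members at 5 CPM or more with DMSO were also counted. Of these, 8 were at least 1.5-fold higher, against 9.88% of 8168 genes, and 0 were lower, against 5.83%. All 29 had a ratio above 1, as had 57.2% of those genes, and their median log2 ratio was 0.39, against 0.06.

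All 5 H1 genes were higher with dTAG13, with H1f4 furthest. H1f5 (ENSMUSG00000058773) was at 570 CPM with DMSO against 802 CPM with dTAG13, a ratio of 1.41 (1.39 to 1.42). H1f4 (ENSMUSG00000051627) was at 180 and 354 CPM, a ratio of 1.97 (1.933 to 2.001). It had a UMI in 51.8% of cells with DMSO and 66.1% with dTAG13, whereas H1f5 had one in 76.2% and 74.7%, at the unequal depths given above. The share of cells with a UMI was thus larger with dTAG13 for H1f4 and not for H1f5. H1f2 was at 44.5 and 69.9 CPM (ratio 1.57), H1f1 at 94.7 and 146 CPM (1.54) and H1f3 at 98.0 and 125 CPM (1.27). Their intervals show that H1f3 had the lowest ratio of the 5 beyond counting error. In M21, H1f4 overlaps H2bc6 and Gm11398 on the same strand, and the sources used here do not say how such reads were assigned. H2bc6 itself had 12.2 and 15.3 CPM (ratio 1.26, 1.17 to 1.35).

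Among the H2A genes, 3 of the 9 at 5 CPM or more were at least 1.5-fold higher, beside 14.2% of all genes at that level. H2ac18 was at 4.68 CPM with DMSO against 9.65 CPM with dTAG13 (ratio 2.06), H2ac24 at 18.0 and 34.7 CPM (1.93), and H2ac15 at 4.79 and 8.55 CPM (1.79). H2ac18 and H2ac15 reached 5 CPM only with dTAG13, so they had to be higher there. H2ac8, the H2A gene with the most UMIs, was at 160 and 182 CPM, a ratio of 1.14 (1.12 to 1.16). H2ac10 was at 10.3 and 10.8 CPM, and its interval, 0.967 to 1.15, includes 1. H2ac18, H2ac24, H2ac15 and H2ac10 share 89.2%, 93.1%, 52.3% and 79.7% of their 50-base stretches with other members, so their single-gene values are uncertain. H2ac8 shares 43.2%, and its value is uncertain too.

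H2bc18 stood apart among the 9 H2B genes at that level. It was at 20.2 CPM with DMSO against 35.3 CPM with dTAG13, a ratio of 1.75 (1.66 to 1.84), and none of its 50-base stretches occurs in another member. In M21 it overlaps Gm42743 on the same strand and Gm20628 on the other. The other 8 had ratios from 1.06 for H2bc3, whose interval of 0.952 to 1.18 includes 1, to 1.44 for H2bc8.

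Of 7 H3 genes at 5 CPM or more, H3c7 and H3c11 were at least 1.5-fold higher, beside 14.2% of all genes at that level. H3c7 was at 18.1 and 33.0 CPM (ratio 1.83) and H3c11 at 7.90 and 13.6 CPM (1.72). They share 49.3% and 87.6% of their 50-base stretches with other members, so their single-gene values are uncertain too. H3c3, with the most H3 UMIs, was at 136 CPM with DMSO against 164 CPM with dTAG13, a ratio of 1.21 (1.18 to 1.24). H3c6 was at 54.5 and 80.6 CPM (1.48), and with 73.4% of its stretches shared its value is as uncertain. The value of H3c3, with 47.0% shared, is uncertain as well.

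H4 is among the most conserved proteins known, and the ratios of its 4 genes at 5 CPM or more were spread widely. H4c4 was at 53.4 CPM with DMSO against 102 CPM with dTAG13, a ratio of 1.90 (1.84 to 1.96). H4c8 was at 4.62 and 8.19 CPM (1.77) and H4c3 at 3.50 and 5.40 CPM (1.54). H4c9 was at 14.2 and 14.5 CPM, a ratio of 1.02 (0.945 to 1.09). The intervals of H4c4 and H4c9 are far apart. Scaled by the median of gene ratios in place of total UMIs, H4c9 was at 0.965 and the other 33 members stayed above 1.

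**Figure D2:**
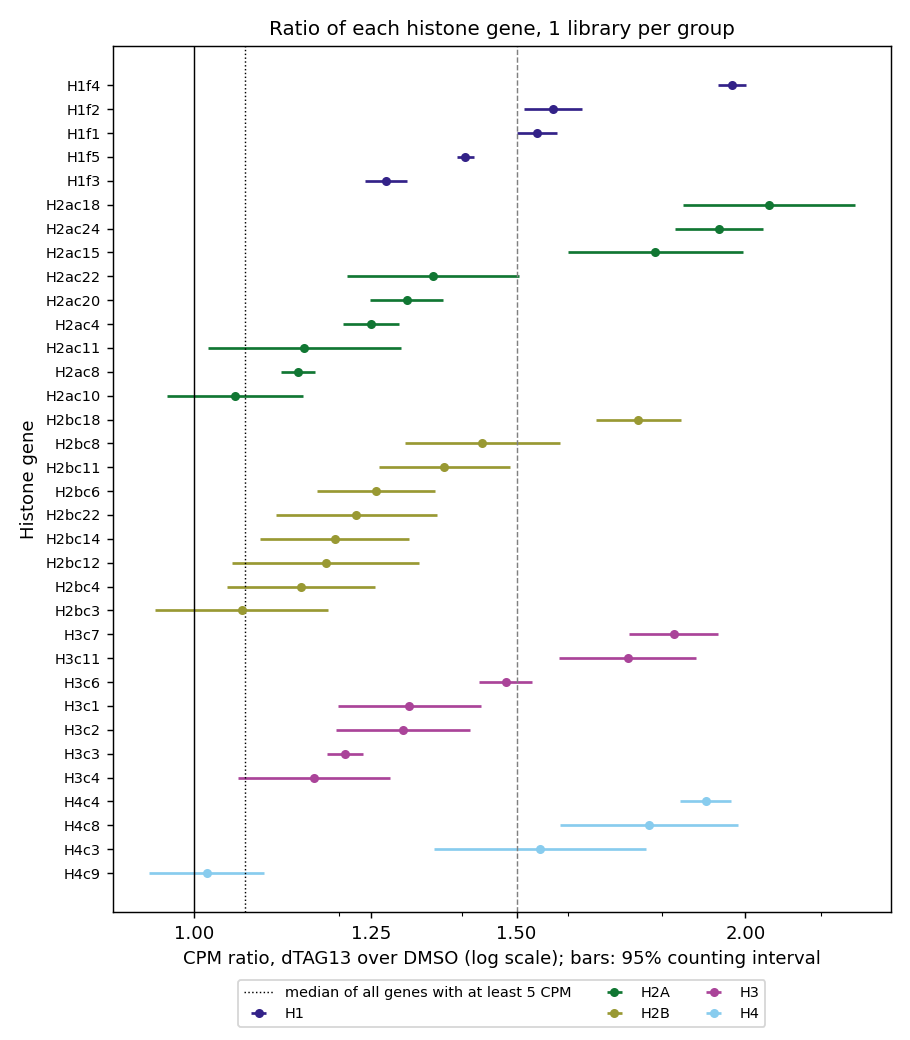
Ratio of dTAG13 over DMSO CPM for the same 34 genes on a log axis, ordered within each histone type, with 95% counting intervals. The solid line is a ratio of 1 and the dashed line is 1.5. The dotted line is the median of the 8817 genes at 5 CPM or more. Ratios run from 1.02 for H4c9 to 2.06 for H2ac18, and each type but H2B has 2 or more genes beyond 1.5. Of the genes beyond 1.5, H2ac18, H2ac15, H4c8 and H4c3 reached 5 CPM only with dTAG13 and so had to be higher there.

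The 33 members under 5 CPM in both libraries comprised the 2 at 0, 28 with a ratio above 1 and 3 with a ratio below 1. The intervals of 14 lay above 1 and that of 1 below. The same counts over all genes under 5 CPM were not made, so these are not read as particular to the members. The 3 with a ratio below 1 were H2ac21, at 1.43 and 1.24 CPM (ratio 0.866), H3c14 (0.851) and H3c15. H2ac1, the testis-type H2A gene, was at 1.03 CPM (121 UMIs) with DMSO against 4.23 CPM (388 UMIs) with dTAG13, a ratio of 4.09 (3.33 to 5.06). It had a UMI in 0.604% of cells with DMSO and in 2.67% with dTAG13. Its divergent neighbour H2bc1, the testis-type H2B gene, had 2 and 22 UMIs, a ratio of 14.0 with an interval from 3.45 to 123. The interval below 1 was that of H3c15, which had 28 UMIs with DMSO and 8 with dTAG13 (ratio 0.365). H2bc1, H3c14 and H3c15 were picked out after their values were seen.

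Members with little sequence in common with the others, most of whose UMIs were of H1 genes, gave nearly the same ratio as the whole family. The 10 members that share under 10% of their 50-base stretches with other members, H1f5, H1f1, H1f2, H1f3, H2bc18 and H2ac1 among them, summed to 832 CPM with DMSO against 1188 CPM with dTAG13, a ratio of 1.43 (1.41 to 1.44). H1f5, H1f1, H1f2 and H1f3 gave 94592 of the 97550 UMIs with DMSO and 104858 of 109026 with dTAG13. The value is therefore mainly one of H1 and says little on the core histone genes.

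Members were also set apart by how the M21 model continues past the stem-loop. The 21 members annotated for at least 100 bases beyond it summed to 666 and 1020 CPM, a ratio of 1.53 (1.52 to 1.54). The 22 members whose model ends within 100 bases of it summed to 314 and 407 CPM, a ratio of 1.29 (1.28 to 1.31), and the 24 with no stem-loop found to 737 and 1056 CPM, a ratio of 1.43. H1f4 carries much of the first value: without it that ratio was 1.37 (1.35 to 1.38). The class with no stem-loop found is mainly one of H1f5 and H1f1. They gave 66787 and 11101 of its 86380 UMIs with DMSO, and 73600 and 13386 of 96933 with dTAG13. The summed ratio was above 1 in all 3 classes.

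Divergent pairs of H2A and H2B genes, whose starts lie 173 to 306 bases apart in M21, numbered 13. Ratios could be set side by side in 12, since H2bc23 had no UMI, and the partners' intervals lay apart in 2 and overlapped in 10. The 2 were H2ac8, at 1.14 (1.12 to 1.16), beside H2bc8 at 1.44 (1.30 to 1.58), and H2ac24, at 1.93 (1.83 to 2.04), beside H2bc24 at 1.07. In that order they share 43.2%, 49.7%, 93.1% and 88.5% of their 50-base stretches with other members, so these single-gene values are uncertain. Several of the 10 had a partner under 1 CPM, whose wide interval makes overlap likely, so overlap does not show that partners were alike. H2bc1, for example, had 2 UMIs with DMSO and 22 with dTAG13, with an interval from 3.45 to 123.

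In single cells, the dTAG13 library held more cells rich in histone RNA, while its middle cell did not hold more. To compare cells at equal depth, each was thinned to 3900 UMIs, which kept 16123 DMSO and 10815 dTAG13 cells and left out 1755 and 773. The mean number of histone UMIs per thinned cell was 6.96 with DMSO and 9.55 with dTAG13, a ratio of 1.37 (1.36 to 1.38). The median was 6 with DMSO and 5 with dTAG13. The 25th percentile was 2 in both libraries, whereas the 95th percentile was 18 with DMSO and 28 with dTAG13.

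Cells with at least 20 histone UMIs after thinning made up 3.43% (3.15% to 3.72%) of DMSO and 18.4% (17.7% to 19.2%) of dTAG13 cells. They held 11.4% and 50.4% of all histone UMIs of the thinned cells. This limit was chosen after the distribution was seen; at 10 or more the shares were 30.8% and 39.4%, and at 30 or more 0.192% and 4.11%. At the other end, 43.0% of DMSO and 47.7% of dTAG13 cells had under 5, and 10.4% and 9.12% had none. The variance over the mean was 5.04 with DMSO and 9.92 with dTAG13. In unthinned cells the median was 9 in both libraries, the 95th percentile 31 and 61, and the share with at least 20 was 18.98% and 38.9%. Doublets were not called, and these shares were not compared with a cell type that lacks histone RNA, as none was defined.

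**Figure D3:**
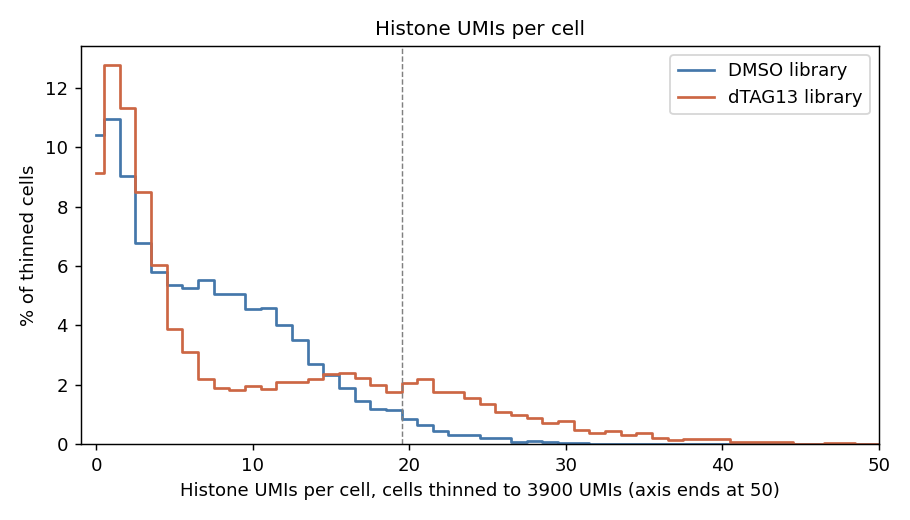
Share of thinned cells (vertical axis, percent) by number of histone UMIs per cell at 3900 UMIs (horizontal axis, drawn to 50) in the DMSO library (blue) and the dTAG13 library (red). The dashed line marks 20 UMIs, above which lie 3.43% of DMSO and 18.4% of dTAG13 cells; between 5 and about 14 UMIs the DMSO curve is the higher one.

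Histone genes varied together from cell to cell. Across thinned cells the correlation of H1 with core histone UMIs was 0.62 over 16123 DMSO and 0.74 over 10815 dTAG13 cells. These are descriptions, since cells of 1 library share its preparation and both counts share the cell's UMI total. H1f5 and H1f4 had correlations of 0.40 with DMSO and 0.56 with dTAG13, H1f5 and H2ac8 of 0.39 and 0.54, H1f5 and H3c3 of 0.33 and 0.45, and H1f5 and H4c4 of 0.20 and 0.38. With Slbp, H1f5 stood at 0.06 and 0.11. With H2az1, a variant histone made outside S phase as well, it stood at -0.02 and 0.15.

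Cells with more histone RNA also had more RNA of S phase genes. From cells with under 5 to cells with at least 20 histone UMIs, the mean number of UMIs of 44 S phase scoring genes went from 18.8 to 23.9 with DMSO and from 13.6 to 20.2 with dTAG13. UMIs of 54 G2 and M phase genes went from 45.3 to 36.9 with DMSO, whereas with dTAG13 they were 37.3, 43.3, 42.7 and 40.3 in cells with under 5, 5 to 9, 10 to 19 and at least 20 histone UMIs. Neither list holds a member. The testis-type gene H2ac1, whose own UMIs add to these totals, was detected in 0.0433% of cells with under 5 and in 1.08% of cells with at least 20 histone UMIs with DMSO, and in 0.0388% and 4.36% with dTAG13. Of the trophoblast list, a UMI of Krt8 or Krt18 was found in 5.91% of the cells with under 5 and 3.80% of those with at least 20 histone UMIs with DMSO. With dTAG13 it was found in 10.4% and 6.37%, with 14.5% in cells with 5 to 9. These keratins do not name a cell type here, and the part of cells with them in the distribution was not tested.

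Phase calls from the same lists gave the highest histone level in cells called S in both libraries. They rank list scores and do not measure DNA content, as 90.7% of DMSO and 82.3% of dTAG13 cells were called G2 and M. With DMSO, histones were at 2652 CPM in 1433 cells called S and at 1658 CPM in 14623 cells called G2 and M, a ratio of 1.60 (1.58 to 1.62). With dTAG13 they were at 3838 CPM in 632 cells and 2627 CPM in 8904 cells, a ratio of 1.46 (1.44 to 1.48). Cells called G1 were lowest, at 1019 CPM in 67 DMSO and 604 CPM in 1279 dTAG13 cells.

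By type, the level in cells called S over that in cells called G2 and M was highest for H2A, at 1.73 with DMSO and 1.56 with dTAG13, and lowest for H4, at 1.33 and 1.13. H1 had 1.64 and 1.53. Of the 34 members at 5 CPM or more in 1 or both phases with DMSO, 17 were at least 1.5-fold higher in cells called S, against 0.992% of 8367 genes. With dTAG13 it was 13 of 40, against 2.26% of 8757 genes. Both counts include members that reached 5 CPM only in cells called S, which had to be higher there. Such were H2ac18 with DMSO, at 8.47 CPM in S and 4.38 CPM in G2 and M cells, and H2bc13 with dTAG13, at 9.25 and 4.91 CPM. No member was at least 1.5-fold lower, against 1.52% and 4.93%. H1f5 had 906 CPM in S and 549 CPM in G2 and M cells with DMSO (ratio 1.65), and 1377 and 846 CPM with dTAG13 (1.63). H2ac8 had ratios of 1.85 and 1.66, and H1f4 of 1.68 and 1.38. A ratio below 1 was found for 1 of the 34 members with DMSO, H2bc12 at 0.846 (0.589 to 1.18), and for 2 of the 40 with dTAG13. These were H2ac11 at 0.802 (0.498 to 1.23) and H2bc18, with 36.4 CPM in S and 39.0 CPM in G2 and M cells, at 0.933 (0.793 to 1.09). All 3 intervals include 1.

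The difference between the libraries was present within cells called S and within cells called G2 and M. It was 1.45 (1.42 to 1.48) in the former and 1.58 (1.57 to 1.59) in the latter. In cells called S, 14 of 40 members at 5 CPM or more were at least 1.5-fold higher with dTAG13, against 11.8% of 8705 genes, and in cells called G2 and M 18 of 35, against 13.5% of 8793. None was at least 1.5-fold lower in either, against 4.88% and 5.78%. Some of these members passed the 5 CPM minimum through the dTAG13 library alone, so they had to be higher there. Such were H4c8 in cells called S (DMSO 4.70 CPM, dTAG13 9.47 CPM) and H2ac18 in cells called G2 and M (DMSO 4.38 CPM, dTAG13 10.3 CPM). Members that passed in the DMSO library were not counted apart within these phases. In cells called G1, 67 with DMSO and 1279 with dTAG13, the direction was the reverse, with a ratio of 0.592 (0.532 to 0.662).

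Since the calls put most cells in 1 class, cells were also divided into 5 classes of equal size over both libraries by the share of S genes in their S plus G2 and M list UMIs. With DMSO the histone level was higher in each next class, from 930 to 1279, 1682, 2128 and 2499 CPM. With dTAG13 it went from 1980 to 2466, 2776 and 3028 CPM and stood at 2901 CPM in the class with the highest share. The dTAG13 level was the higher one in each class, and the ratio went from 2.13 (2.09 to 2.17) in the lowest to 1.93, 1.65, 1.42 and 1.16 (1.15 to 1.18) in the highest. The middle cell did not follow these sums. Median histone UMIs per thinned cell from the lowest to the highest class were 2, 3, 6, 8 and 9 with DMSO and 4, 5, 6, 6 and 6 with dTAG13, so that the median was lower with dTAG13 in the upper 2 classes. In the highest class 6.57% of DMSO and 23.4% of dTAG13 cells had at least 20 histone UMIs.

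The histone types parted in the highest class. There H2A was at 466.9 CPM in the DMSO and 467.0 CPM in the dTAG13 library, with a ratio interval of 0.970 to 1.03. H2B and H3 had ratios of 1.04 (0.981 to 1.10) and 1.03 (0.996 to 1.07), whose intervals include 1. Scaled by the median of gene ratios these 3 types were below 1 there, at 0.950, 0.988 and 0.981. H1 and H4 remained higher with dTAG13, at 1.24 (1.22 to 1.26) and 1.33 (1.254 to 1.415). The H4 value there rests largely on H4c4, which held 1330 of 2133 H4 UMIs with DMSO and 1513 of 2145 with dTAG13. The other H4 genes were not summed apart in this class. In the lowest class all 5 types were between 1.84 for H3 and 2.27 for H1. H2ac8 changed sides, from 70.1 CPM with DMSO against 133 CPM with dTAG13 in the lowest class (ratio 1.90) to 256 and 232 CPM in the highest (ratio 0.909, 0.870 to 0.949). H1f4 went from a ratio of 2.97 to one of 1.51, and H4c4 from 2.55 to 1.51, above 1 in each of the 5 classes.

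The share does not tell a cell with few UMIs of both lists from one with many, so cells were also put into 5 classes by each list at once, in a grid of 25 groups added after the data were seen. Mean histone UMIs per thinned cell were higher with dTAG13 in 23 groups, at least 1.5-fold in 21, with a median ratio of 1.83 and a largest of 2.78. The group lowest in both lists was the reverse. It held 287 DMSO and 1945 dTAG13 cells, with 5.6 histone UMIs per cell with DMSO and 2.6 with dTAG13, a ratio of 0.470. A UMI of Krt8 or Krt18 was found in 8.01% of these cells with DMSO and in 19.2% with dTAG13, the largest share of the 25 groups in that library, and the part of such cells in the value was not tested. The other group below 1, next higher in S list UMIs, had means of 7.31 and 6.83. The lowest group mean with DMSO, 2.6, was in cells lowest in S and highest in G2 and M list UMIs. Without the cells lowest in both lists the histone sum was at 1736 CPM with DMSO against 2791 CPM with dTAG13, a ratio of 1.61 (1.60 to 1.62), and 19 of 37 members were at least 1.5-fold higher, against 12.8% of 8783 genes. Some of the 19, H2ac18 among them, passed the minimum through the dTAG13 library alone and so had to be higher there.

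**Figure D4:**
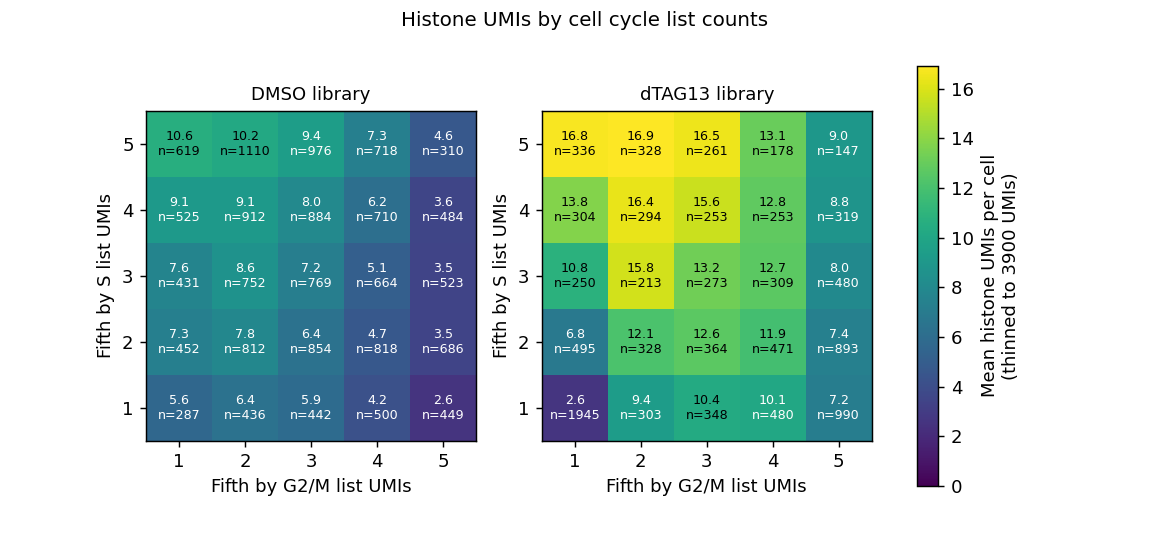
Mean histone UMIs per cell thinned to 3900 UMIs (colour scale) for cells grouped into 5 pooled classes by S list UMIs (vertical) and 5 by G2/M list UMIs (horizontal), with the number of cells in each square, for the DMSO library (left) and the dTAG13 library (right). The lower left square of the dTAG13 panel holds 1945 cells with a mean of 2.6, and the upper left squares of that panel are the brightest, at up to 16.9.

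Genes that transcribe, process and degrade histone mRNA had a median ratio near 1. Of 31 in the list, 30 reached 5 CPM, 1 was at least 1.5-fold higher with dTAG13, against 14.2% of all 8817 genes at that level, and 3 at least 1.5-fold lower, against 5.4%. Their median log2 ratio was -0.03. Slbp was at 100 CPM with DMSO against 87.7 CPM with dTAG13 (ratio 0.874), and Npat at 29.5 and 28.8 CPM (0.975). The 3 lower genes were Ccne1, a cyclin E gene, at 139 and 72.1 CPM (0.520), its paralog Ccne2 at 16.4 and 10.2 CPM (0.620), and Coil, the Cajal body protein coilin, at 55.5 and 36.2 CPM (0.653). The higher gene was Tut7, a uridylyltransferase, at 27.2 and 47.5 CPM (1.75).

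Of 27 measured histone chaperone and acetylation genes, 2 were at least 1.5-fold higher and 1 lower, beside the same 14.2% and 5.4% of all genes, with a median log2 ratio of -0.09. Dnajc9, a cochaperone of H3 and H4, was at 79.4 CPM with DMSO against 156 CPM with dTAG13 (ratio 1.96), and Rbbp7, a subunit of histone acetyltransferase and deacetylase complexes, at 155 and 234 CPM (1.51). Anp32e, a chaperone that removes H2A.Z, was at 197 and 129 CPM (0.653). Chaf1b, a subunit of the replication-coupled chaperone CAF-1, was at 24.2 and 16.5 CPM (0.683).

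The histone variants that are made outside replication, whose mRNAs are polyadenylated, went both ways. Of 18 measured, 11 reached 5 CPM, 1 was at least 1.5-fold higher and 0 lower, near the 14.2% and 5.4% of all genes, with a median log2 ratio of 0.01. H1f0, the linker histone of slowly dividing cells, was at 22.1 CPM with DMSO against 48.2 CPM with dTAG13 (ratio 2.18). H1f10 was at 59.4 and 60.0 CPM (1.01). The H3.3 genes parted, with H3f3a at 1051 and 902 CPM (0.859) and H3f3b at 1021 and 1485 CPM (1.46). H2az1 was at 2466 and 1769 CPM (0.717) and H2ax, whose mRNA is known to exist in both stem-loop and polyadenylated forms, at 335 and 234 CPM (0.700).

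Most S phase scoring genes were lower in the dTAG13 library. Of 44, 8 were at least 1.5-fold lower, against 5.4% of all genes, with a median log2 ratio of -0.29 beside 0.41 for the 34 members. The lowest were Gmnn, a replication licensing inhibitor, at 261 and 140 CPM (ratio 0.537), Cdc6, a licensing factor, at 55.8 and 30.9 CPM (0.553), the repressor E2f8 at 26.5 and 15.0 CPM (0.567), and Uhrf1, which reads hemimethylated DNA, at 71.5 and 42.6 CPM (0.595). Of 54 G2 and M genes, 5 were at least 1.5-fold higher (Psrc1, Gtse1, Ckap2, Hmmr and Cdc20) and 1 lower (Anp32e), against 14.2% and 5.4% of all genes, with a median log2 ratio of 0.09. Cdc20 was named after its values were seen. The part of cell cycle composition in the histone difference was not tested.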

How the data were processed

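The values are whole-number UMI counts per gene and cell barcode, deposited as matrices whose headers name Cell Ranger 8.0.1. Seurat 5.0.1, R 4.3.2 and mm10 stand in the submitters' processing notes, and no source used here names the annotation. Cells with 500 or more genes detected and 10% or less of their UMIs from mt- genes were used. Counts were summed per symbol and divided by the library total (CPM). Intervals at 95% are exact: Poisson for CPM, conditional binomial for ratios, Clopper-Pearson for shares. Depth was 117189816 and 91808969 UMIs. The minimum for counting a gene was 5 CPM and the fold 1.5. Phases came from scanpy 1.11.5 on cells thinned to 3900 UMIs. Ratio and interval code was tested on simulated data. Stem-loops, overlaps and shared 50-base stretches came from GENCODE M21, promoters from RefSeq. Members at 5 CPM or more were named freely and other members from 1 CPM. Of each list, up to 4 genes with the largest log2 ratio at 10 CPM or more were named. Slbp, Npat and 6 variants were always named, and some markers of other cells were named outside these limits. Members and lists were chosen with earlier results of these data known. Alternatives were other cell filters, scaling, minimum levels, cell weights, thinning depths and phase rules. No doublet caller was run.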

Additional observations from a re-analysis of the deposited data

How the results depend on the processing

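Other cell filters (1000 genes, every barcode, without the 5% of cells with the most UMIs) left the summed ratio, both counts and the median log2 ratio where they were, within counting error or 1.5 times. The summed ratio was 1.37 with median-of-ratios scaling, 1.36 with cells weighted equally, 1.46 without H1f5 and, in an alternative added after seeing the data, 1.61 without the cells in the lowest of 5 classes by both phase lists. Members at least 1.5-fold higher numbered 23 of 65 with no minimum, 7 of 14 at 20 CPM, 9 of 34 with median-of-ratios scaling and 19 of 37 without those cells. These counts, but for that with no minimum, include members that reached the minimum only with dTAG13. Members at least 1.5-fold lower numbered 1 (H3c15) with no minimum. Without those cells 12.8% of 8783 genes were at least 1.5-fold higher. For the other settings in these counts the share of all genes was not counted, so whether the members stand above it there is not known. The median log2 ratio was 0.59 at 20 CPM and 0.61 without those cells. The ratio of means per thinned cell was 1.36 at 2000 UMIs and 1.72 at 6000 UMIs, where 8884 DMSO and 3919 dTAG13 cells were too shallow. With DMSO the level in cells called S over G2 and M was 1.58 with phases from unthinned cells and 1.58 without H1f5, and the highest over the lowest S-share class was 2.69. With dTAG13 it was 1.38 without H1f5. With the 5 classes set on the DMSO cells alone, the ratios in classes 1, 2 and 4 were 2.06, 1.79 and 1.40. With median-of-ratios scaling the 5 ratios were 2.02, 1.83, 1.57, 1.35 and 1.10. That scaling moved every log2 ratio by -0.07. Under it H4c9 turned to 0.965 and, in the highest S-share class, H2A, H2B and H3 to 0.950, 0.988 and 0.981. The summed ratios and the median kept their direction; the causes were not tested. No paired analysis was possible because each group is 1 library. Members under 1 CPM rest on few UMIs, and a difference between the groups cannot be told apart from one between the library preparations.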
